A study of Mus musculus with 8 samples.

Results

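Satb1 encodes a nuclear protein that binds AT-rich DNA and organises chromatin into loops. It is abundant in developing T cells, where it takes part in setting up the enhancers of T cell and regulatory T (Treg) cell genes, and in Treg cells the lineage factor Foxp3 holds it down. The gene lies beside a long stretch without protein-coding genes, of the kind that often carries distant enhancers. Chromatin accessibility was followed here over the gene and that gene desert, as all sites of the counts table with a midpoint between 51.8 and 52.4 Mb of chromosome 17 (build mm9). These bounds held 113 of 79758 sites, of which 110 passed the filter on low counts. The interval was chosen from earlier results of the same libraries, in which WT eTreg had fewer counts there than WT cTreg. That difference is therefore given as a description only.

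ATAC-seq, which reads open chromatin through the cuts of an adapter-loaded transposase, was run on Treg cells from spleen and lymph nodes of mouse mixed bone marrow chimeras. Each of the 4 groups had 2 libraries. They were Pggt1bKO eTreg, Pggt1bKO cTreg, WT eTreg and WT cTreg, where Pggt1bKO cells lack Pggt1b, the beta subunit of the enzyme complex (GGTase I) that attaches geranylgeranyl lipids to proteins. The name eTreg stands for effector Treg cells, the activated subset, and cTreg is the usual name of the central, resting-type subset. The study compared the genotypes within each subset and the subsets within each genotype. All groups share the chimera setting. The labels used here do not give the Cre driver, the ages, the host cells that remained or the surface markers of the sort. Nothing in them says that a group's 2 libraries are from different chimeras, and the p-values therefore reflect library-to-library spread that may be technical. In bulk samples, fewer cells with an open site and less opening per cell cannot be told apart. Subset markers were not checked, since no mm9 gene annotation was at hand.

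The Pggt1bKO eTreg libraries were much shallower than the others. Their totals over all sites were 2255214 and 1664702 counts, against 7153991 to 14974253 in the other 6 libraries. The 113 sites held 1695 and 1245 counts in the Pggt1bKO eTreg libraries, and between 6466 and 12590 in the others. No count at all fell on 25 and 33 of the 113 sites in the Pggt1bKO eTreg libraries, and on 0 to 8 in the others. A single count there stood for 0.448 and 0.593 CPM, the usual depth-scaled count, taken here over TMM library sizes. Values of low sites in Pggt1bKO eTreg therefore rest on the fewest counts.

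Sites were narrow and dense. Their widths ran from 2 to 1533 bp with a median of 88 bp, against 104 bp over all sites, and the median distance between neighbouring midpoints was 1353 bp. With the gene taken as about 51.87 to 51.97 Mb, 37 sites lay in the gene, 75 above it and 1 below it. The bounds of the gene are approximate, so sites within a few kb of them could not be assigned to the gene or the desert. In RefSeq (GRCm38.p6), Satb1 is read on the minus strand, with Tbc1d5 and Kcnh8 as the nearest protein-coding genes. Between Satb1 and Kcnh8 that annotation lists 4 long non-coding RNAs (Gm20098, Gm19585, Gm41600 and Gm27217) and 1 pseudogene (Gm19197). The desert above the gene is thus upstream of its start.

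RefSeq lists 5 starts for Satb1, spread over 21236 bp. The 250 bases before the outermost of them, at chr17:51833291-51833540 on the minus strand of GRCm38.p6, are shown because the region's broadest open site lies at the upper, upstream end of the gene. Capitals mark matches to 2 of 7 motifs searched on both strands.
Satb1: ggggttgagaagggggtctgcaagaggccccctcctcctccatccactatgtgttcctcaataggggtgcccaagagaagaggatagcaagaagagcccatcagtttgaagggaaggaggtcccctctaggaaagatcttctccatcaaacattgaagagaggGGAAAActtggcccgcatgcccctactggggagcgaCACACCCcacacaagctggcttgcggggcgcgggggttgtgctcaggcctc
The first capitals are the NFAT core GGAAAA, found in 20.4% of 32851 promoter windows, and the second the KLF core GGGTGTG read on the other strand, found in 6.93%. The letters of TCF/LEF (CTTTGA, 13.8% of windows), RUNX (TGTGGT, 14%), forkhead (TGTTTAC, 3.17%), AP-1 (TGANTCA, 6.75%) and ETS (CCGGAA, 12%) were not in this window. Its GC content was 58%, against a median of 52.4%. A match is a run of letters and not a bound site. The sites are on mm9 and this window is on GRCm38, so neither was laid over the other.

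Summed over the interval, accessibility was lower in eTreg than in cTreg cells, and Pggt1bKO eTreg lay between WT eTreg and both cTreg groups. Single sites varied: the Pggt1bKO eTreg mean lay there at 54 of 110 tested sites and was the lowest of the 4 groups at 32, while WT eTreg was lowest at 71. The 113 sites together took 751.6 and 747.9 CPM of the library's raw total in Pggt1bKO eTreg, 1132 and 1076 in Pggt1bKO cTreg, 577.6 and 584.4 in WT eTreg, and 975.9 and 994.4 in WT cTreg. No 2 groups overlapped, but 2 libraries against 2 cannot give an exact permutation p below 0.33, and no test was made on these sums. The group means were 750 ± 2.62, 1104 ± 39.6, 581 ± 4.8 and 985 ± 13.1 in the same order (SD, n = 2 each). The Pggt1bKO eTreg mean was 67.9% of the Pggt1bKO cTreg mean and 129% of the WT eTreg mean.

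**Figure D1:**
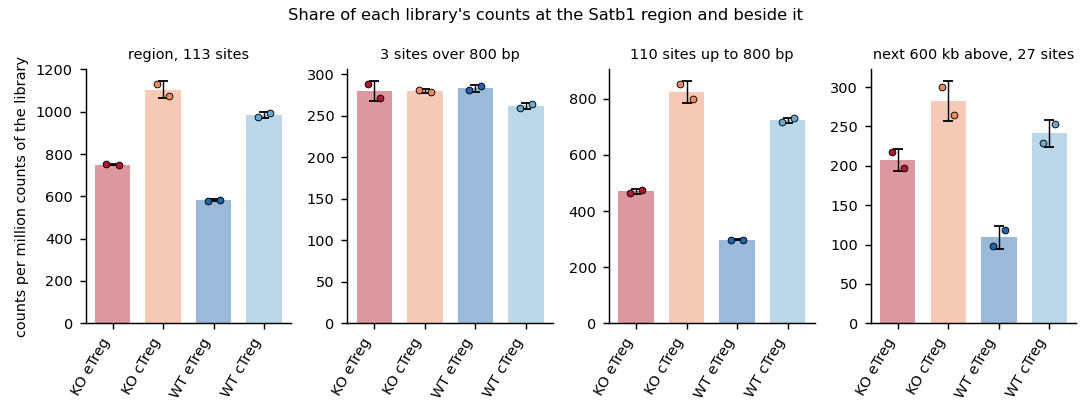
Summed counts over sets of sites, as CPM of each library's raw total, with 1 point per library, bars at the mean and error bars of 1 SD (n = 2 per group). Over all 113 sites the Pggt1bKO eTreg libraries stand at 751.6 and 747.9, between WT eTreg and both cTreg groups, while the sum over the 3 sites over 800 bp has means of 262 to 283 in the 4 groups.

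These sums joined unlike sites. The 3 sites wider than 800 bp summed to means of 280, 280, 283 and 262 CPM in Pggt1bKO eTreg, Pggt1bKO cTreg, WT eTreg and WT cTreg. The other 110 sites held 470 ± 8.87 CPM in Pggt1bKO eTreg, 824 ± 37.7 in Pggt1bKO cTreg, 298 ± 0.831 in WT eTreg and 723 ± 9.57 in WT cTreg (SD, n = 2 each). Without the broad sites, Pggt1bKO eTreg thus stood at 57% of Pggt1bKO cTreg and at 158% of WT eTreg. The width cut of 800 bp was chosen after the values were seen.

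The broadest site, chr17:51971281-51972814 (1533 bp), lay at the upstream end of the gene as the bounds give it. It had 103 and 108 CPM in Pggt1bKO eTreg, 128 and 116 in Pggt1bKO cTreg, 99 and 93 in WT eTreg, and 105 and 111 in WT cTreg. It passed no test in any comparison, and its log2 difference between Pggt1bKO eTreg and Pggt1bKO cTreg was -0.21 ± 0.10 (SE, edgeR adjusted p = 0.186). A second broad site in the gene, chr17:51952239-51953287 (1048 bp), had 47.5 and 36.7 CPM in Pggt1bKO eTreg, 36.8 and 32.6 in Pggt1bKO cTreg, 44.6 and 41.1 in WT eTreg, and 30 and 33.1 in WT cTreg. Here the eTreg groups stood at the upper end, and the log2 difference between Pggt1bKO eTreg and Pggt1bKO cTreg was 0.30 ± 0.16 (SE, edgeR adjusted p = 0.262).

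The third broad site lay far out in the desert, 330.2 kb above the middle of the broadest one, at chr17:52301860-52302665 (805 bp). It had the highest mean level of the interval, with 140 and 123 CPM in Pggt1bKO eTreg, 115 and 127 in Pggt1bKO cTreg, 148 and 157 in WT eTreg, and 120 and 121 in WT cTreg. The Pggt1bKO subsets overlapped there, with a log2 difference of 0.14 ± 0.10 (SE, edgeR adjusted p = 0.412). Within Pggt1bKO, none of the 3 broad sites thus passed the test between subsets, and the eTreg mean was the lower one only at the broadest of them. In the WT values that chose the interval, both others were called higher in WT eTreg than in WT cTreg, chr17:51952239-51953287 by 0.44 and chr17:52301860-52302665 by 0.34 on the log2 scale.

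**Figure D2:**
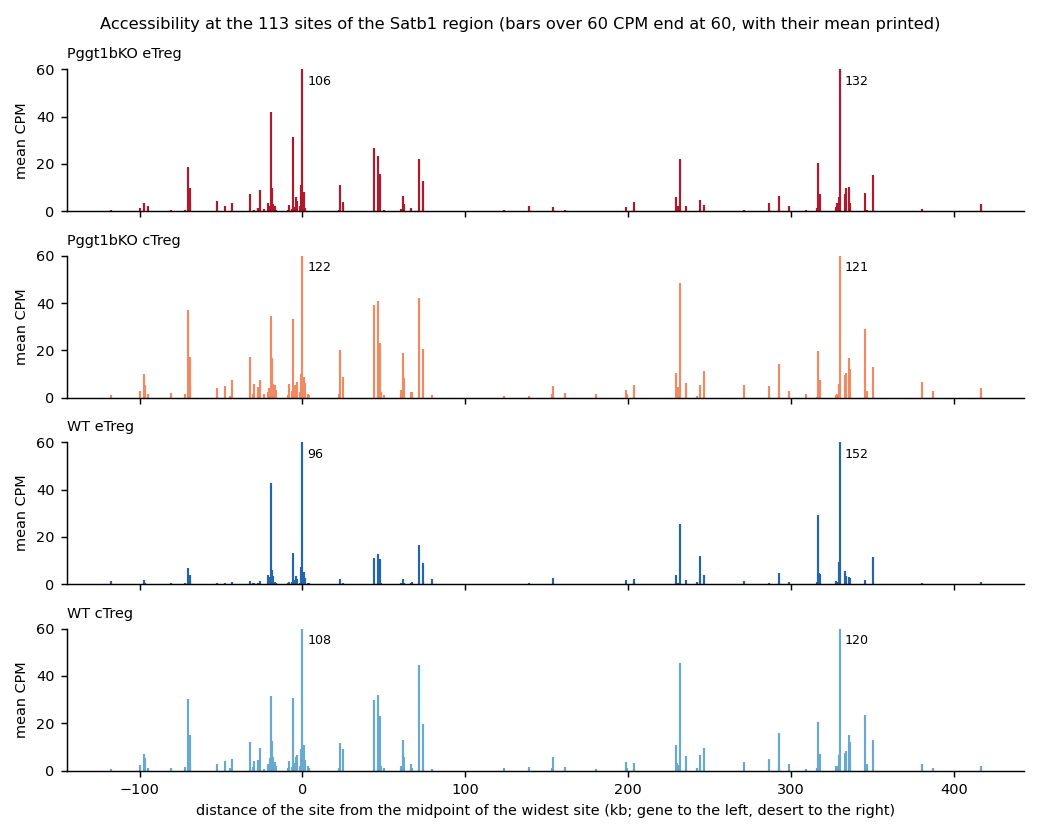
Mean accessibility (CPM, linear axis) of the 113 sites by distance in kb from the middle of the widest site, with 1 panel per group, the gene to the left and the desert to the right. Bars over 60 CPM end at 60 with their mean printed. The tall sites recur in every group, and the strong narrow sites over the gene and just above it, such as those at -70.0 and 43.8 kb, are shortest in WT eTreg.

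The subset difference within the Pggt1bKO genotype shares no library with the WT difference on which the interval was chosen. Between Pggt1bKO eTreg and Pggt1bKO cTreg, 19 of 110 tested sites fell and 0 rose (edgeR quasi-likelihood test, Benjamini-Hochberg adjusted over all 75352 sites, called at 0.05). Over all sites tested, 4.52% fell and 4.59% rose, so the share of falling sites here was above the background and that of rising ones below it. At an unadjusted p under 0.05, 48 of the 110 differed in either direction, against 17913 of 75352 over all sites. The median log2 difference of the 110 sites was -1.01, against -0.06 over all sites. Values were negative at 92 of them, against 40459 of 75352 over all sites. With the groups that had no count set at 6 counts, the median was -0.76. The count of falling sites was 11 without Pggt1bKO eTreg replicate 1, 12 without Pggt1bKO cTreg replicate 1, 10 by voom with group weights, and 7 of 41 tested after thinning all libraries to the smallest total. Over all sites, the calls in both directions were 3342 of 78317, 3161 of 78329, 3100 of 75352 and 2938 of 37236 in these fits. DESeq2 called 13 members, all falling, with 4969 calls of 75352 over all sites. No member site rose in any of these fits.

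Falling sites lay in the gene and across the desert. In the gene 5 of 35 tested sites fell, and above it 14 of 74. The site chr17:52317446-52317601, 345.5 kb above the broadest one, had 5.83 and 9.48 CPM in Pggt1bKO eTreg, 28.6 and 29.8 in Pggt1bKO cTreg, 1.11 and 2.31 in WT eTreg, and 21.7 and 25.7 in WT cTreg. All eTreg libraries were below all cTreg libraries, and the Pggt1bKO eTreg libraries were above the WT eTreg ones. Its log2 difference between Pggt1bKO eTreg and Pggt1bKO cTreg was -1.97 ± 0.29 (SE, edgeR adjusted p = 1.26e-05).

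In the wide desert site chr17:52203834-52204466 (632 bp), both eTreg groups were below both cTreg groups. It had 17 and 27.3 CPM in Pggt1bKO eTreg, 47 and 49.5 in Pggt1bKO cTreg, 24.6 and 26.3 in WT eTreg, and 45.8 and 45.1 in WT cTreg. The difference within Pggt1bKO was -1.16 ± 0.18 (SE, edgeR adjusted p = 3.28e-05). Between Pggt1bKO eTreg and WT eTreg the libraries overlapped, with a log2 difference of -0.24 ± 0.19 (SE, edgeR adjusted p = 0.464).

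Near the gene, chr17:52043324-52043605, 71.4 kb above the broadest site, fell by 0.93 ± 0.19 on the log2 scale between Pggt1bKO eTreg and Pggt1bKO cTreg (SE, edgeR adjusted p = 8.54e-04). It had 23.8 and 20.1 CPM in Pggt1bKO eTreg, 46.2 and 37.8 in Pggt1bKO cTreg, 16.9 and 16.1 in WT eTreg, and 45.9 and 43.4 in WT cTreg. Its neighbour chr17:52018645-52018838 had means of 23.2, 40.7, 12.7 and 31.8 CPM in the same order of groups and fell within Pggt1bKO by 0.80 ± 0.19 (SE, edgeR adjusted p = 0.00603). Both lay in the stretch of desert next to the gene. The second missed the threshold without Pggt1bKO cTreg replicate 1 (edgeR adjusted p = 0.112) and after thinning (0.109).

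Some of the largest falls rested on very few counts. The site chr17:51875191-51875331, at the lower end of the gene, had no count in either Pggt1bKO eTreg library, and 6.28 and 4.55 CPM in the Pggt1bKO cTreg libraries. With 6 counts over the group as the floor of a zero count, it was at least 3.6-fold lower in Pggt1bKO eTreg (edgeR adjusted p = 3.52e-04). The site chr17:51942369-51942480 was 11-fold lower in Pggt1bKO eTreg, with a 95% counting interval of 1.9 to 450. The site chr17:52243024-52243096 was 9.94-fold lower, with an interval of 1.69 to 402, and chr17:52352457-52352600 was 8.73-fold lower, with an interval of 1.73 to 55.4. Each of these 3 missed the threshold without a single library: the first and the last without Pggt1bKO eTreg replicate 1 (edgeR adjusted p = 0.127 and 0.0788), the second without Pggt1bKO eTreg replicate 2 (0.0608) or Pggt1bKO cTreg replicate 2 (0.0724). Intervals and floors cover counting error only. In all, 16 of the 110 tested sites had no count in Pggt1bKO eTreg, against 3 in WT eTreg and 0 in either cTreg group.

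**Figure D3:**
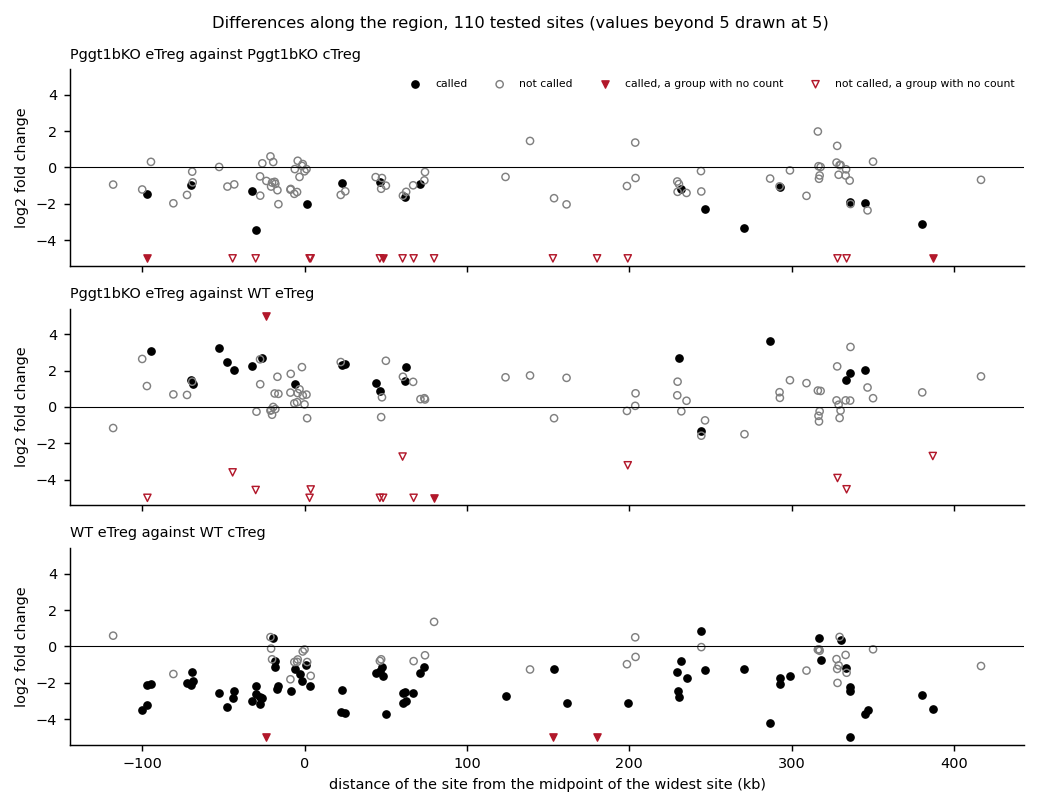
Log2 differences of the tested sites by distance in kb from the middle of the widest site, with 1 panel per comparison. Filled symbols passed the edgeR test, triangles mark sites where a group had no count and whose drawn value is no fold, and values beyond 5 are drawn at 5. The 19 sites that fell between Pggt1bKO eTreg and Pggt1bKO cTreg are spread over the gene and the desert. Of the 21 that rose between Pggt1bKO eTreg and WT eTreg, 16 lie on the left, below 52.04 Mb, among 59 tested sites, and 5 above, among 51. That position is the upper end of the 20 kb bins called higher in the same comparison.

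Between Pggt1bKO eTreg and WT eTreg, 21 of 110 tested sites rose and 2 fell, where 4.66% of all sites rose and 6.43% fell. The median log2 difference of the members was 0.67, against -0.09 over all sites. It was 0.34 and 0.63 without Pggt1bKO eTreg replicates 1 and 2, against -0.17 and -0.12 over all sites. Setting groups at no count to 6 counts gave 1.11, which is no check here. In the shallow Pggt1bKO eTreg libraries that floor can lie above the WT eTreg level, so that a lower value becomes a higher one. This was so at chr17:51875191-51875331, with 0 counts in Pggt1bKO eTreg against 14 in WT eTreg. This comparison uses the WT eTreg libraries, whose low counts chose the interval, so its direction is no independent result. The count called was 23 in both directions, with 8354 calls of 75352 over all sites. After thinning it was 10 of 41 tested, with 3622 calls of 37236 over all sites.

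In the gene 10 of 35 tested sites rose and 0 fell, and above it 11 of 74 rose and 2 fell. The gene site chr17:51945955-51946200 had 7.18 and 10.7 CPM in Pggt1bKO eTreg, 6.73 and 8.28 in Pggt1bKO cTreg, 1.2 and 1.49 in WT eTreg, and 8.94 and 10.5 in WT cTreg. Only the WT eTreg libraries were low, and Pggt1bKO eTreg overlapped both cTreg groups. The log2 difference between Pggt1bKO eTreg and WT eTreg was 2.67 ± 0.43 (SE, edgeR adjusted p = 3.02e-05).

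At the strong gene site chr17:51965871-51966139 the WT eTreg libraries were again the only low ones, with 31.4 and 31.4 CPM in Pggt1bKO eTreg, 35 and 31.9 in Pggt1bKO cTreg, 14.7 and 11.5 in WT eTreg, and 30 and 31 in WT cTreg. It lay 6.0 kb below the middle of the broadest site, within the range where gene and desert are not separable. The log2 difference between Pggt1bKO eTreg and WT eTreg was 1.27 ± 0.20 (SE, edgeR adjusted p = 1.62e-05), and that between Pggt1bKO eTreg and Pggt1bKO cTreg was -0.09 ± 0.18 (SE, edgeR adjusted p = 0.809). Deeper in the gene, chr17:51901953-51902077 had 19.7 and 17.8 CPM in Pggt1bKO eTreg, 40.6 and 33.5 in Pggt1bKO cTreg, 7.14 and 6.65 in WT eTreg, and 27.5 and 32.8 in WT cTreg. This site was intermediate in Pggt1bKO eTreg: it rose against WT eTreg by 1.46 ± 0.25 (SE, edgeR adjusted p = 6.56e-05) and fell against Pggt1bKO cTreg by 0.98 ± 0.21 (SE, edgeR adjusted p = 0.00169).

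Just above the gene, chr17:51994700-51994905 had 13.5 and 8.3 CPM in Pggt1bKO eTreg, 19.9 and 20.7 in Pggt1bKO cTreg, 2.41 and 2.04 in WT eTreg, and 12.9 and 10.8 in WT cTreg. Both Pggt1bKO groups were higher than their WT counterparts on average, although Pggt1bKO eTreg overlapped WT cTreg. It rose by 2.33 ± 0.36 between Pggt1bKO eTreg and WT eTreg (SE, edgeR adjusted p = 1.47e-05). The 490 bp site chr17:52015636-52016126, 43.8 kb above the broadest site, had 27.8 and 26.1 CPM in Pggt1bKO eTreg, 40.3 and 37.8 in Pggt1bKO cTreg, 12.1 and 10 in WT eTreg, and 29.4 and 30.4 in WT cTreg. It rose by 1.30 ± 0.20 against WT eTreg (SE, edgeR adjusted p = 2.17e-05). A smaller site between them, chr17:51997057-51997164, had means of 3.72, 8.85, 0.661 and 9.02 CPM in Pggt1bKO eTreg, Pggt1bKO cTreg, WT eTreg and WT cTreg.

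Within a few kb of the broad desert site, narrow sites passed the test between Pggt1bKO eTreg and WT eTreg, which the broad one did not. The site chr17:52307773-52307953 had 9.87 and 10.7 CPM in Pggt1bKO eTreg, 15 and 18.8 in Pggt1bKO cTreg, 3.06 and 2.58 in WT eTreg, and 13.4 and 17 in WT cTreg. Its log2 difference between Pggt1bKO eTreg and WT eTreg was 1.87 ± 0.35 (SE, edgeR adjusted p = 3.33e-04). The nearby chr17:52305556-52305670 had 8.07 and 11.9 CPM in Pggt1bKO eTreg, overlapping the 11.1 and 9.8 of Pggt1bKO cTreg, and 3.34 and 3.6 in WT eTreg. It rose by 1.49 ± 0.36 between Pggt1bKO eTreg and WT eTreg (SE, edgeR adjusted p = 0.00458), and missed the threshold without Pggt1bKO eTreg replicate 2 (0.0713) and after thinning (0.0629). The lower site chr17:52308317-52308417 had means of 0.521, 2.11, 0.0339 and 3.55 CPM in Pggt1bKO eTreg, Pggt1bKO cTreg, WT eTreg and WT cTreg, too few counts in both eTreg groups for a fold to be read.

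The opposite direction was rare. The site chr17:52216114-52216327 had 4.48 and 4.74 CPM in Pggt1bKO eTreg, 5.83 and 4.69 in Pggt1bKO cTreg, 12 and 11.6 in WT eTreg, and 6.76 and 6.41 in WT cTreg. WT eTreg alone was high, and the site fell by 1.35 ± 0.37 on the log2 scale between Pggt1bKO eTreg and WT eTreg (SE, edgeR adjusted p = 0.0124). It missed the threshold without Pggt1bKO eTreg replicate 1 (edgeR adjusted p = 0.0934) and by voom with group weights (0.101). The other falling site, chr17:52051787-52051838, had no count in either Pggt1bKO eTreg library, against 1.85 and 2.24 CPM in WT eTreg (edgeR adjusted p = 0.0307), and was outside the naming rule. With the floor of 6 counts it was at least 1.36-fold lower in Pggt1bKO eTreg. The strong site chr17:52288515-52288710 had 21.5 and 19.6 CPM in Pggt1bKO eTreg, 17.3 and 22.4 in Pggt1bKO cTreg, 31.4 and 26.7 in WT eTreg, and 20.5 and 20.9 in WT cTreg, and was not called between Pggt1bKO eTreg and WT eTreg (edgeR adjusted p = 0.122).

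**Figure D4:**
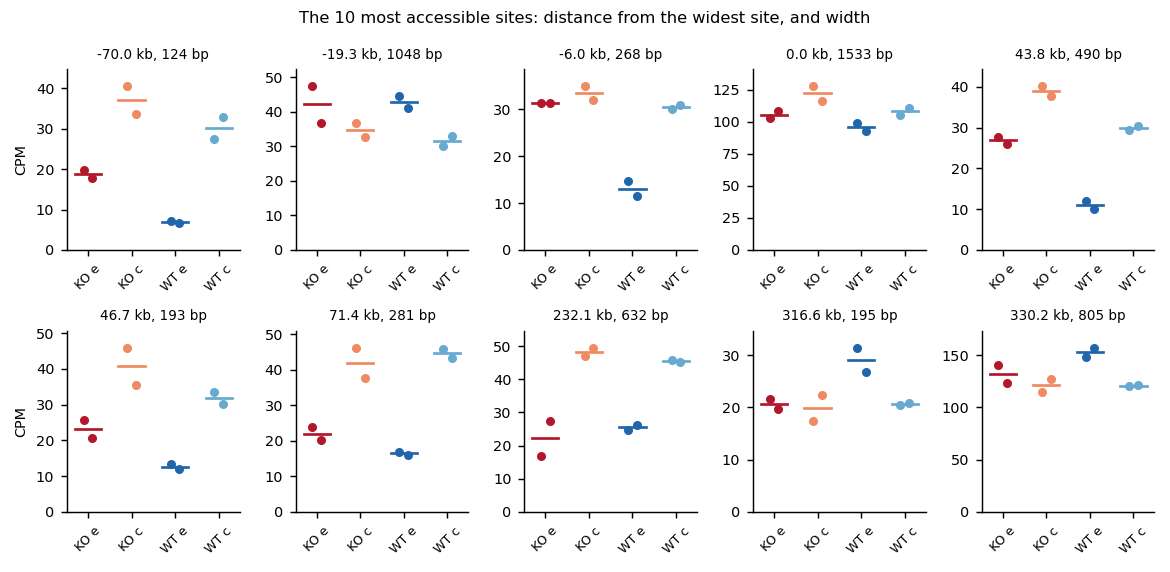
CPM of the 10 sites with the highest mean level, 1 panel per site with its own axis from 0, 1 point per library and a line at the mean of each group of 2 (KO e is Pggt1bKO eTreg, and so on). The 3 broad sites (1048, 1533 and 805 bp) do not share one order of groups, while most of the narrower ones are lowest in WT eTreg.

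Between Pggt1bKO cTreg and WT cTreg few single sites passed the test, although the summed level over the interval was 112% of WT cTreg in Pggt1bKO cTreg, with no overlap between libraries, and 118% in the gene. That excess was not particular to the interval: it was 112% in the 600 kb below and 117% in the 600 kb above. Of 110 tested sites 1 rose and 0 fell, with 0.530% rising and 1.69% falling over all sites. An unadjusted p under 0.05 was reached at 12, against 10336 of 75352 over all sites, so such sites were no more frequent here. The called site was chr17:51994700-51994905 at 0.78 ± 0.21 (SE, edgeR adjusted p = 0.0318), and its adjusted p ran from 0.0022 to 0.452 over 15 alternatives, above 0.05 in 6 of them. By DESeq2 no member was called, with 867 calls among all 75352 sites, and by voom with group weights 5 were, with 2866 calls among all sites. The median log2 difference was 0.17, against -0.03 over all sites, and 72 of 110 sites were positive, against 34982 of 75352.

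As a description of the values that chose the interval, 70 of 110 tested sites were lower and 4 higher in WT eTreg than in WT cTreg, where 14.9% of all sites were lower and 13.8% higher. The median log2 difference was -1.57, against 0.00 over all sites. At the bounds, the last site inside, chr17:52388767-52388794, had means of 0.762 and 1.71 CPM in WT eTreg and WT cTreg, and the first site outside, chr17:52411199-52411281, had 0.161 and 2.51. At the lower bound, the first site inside, chr17:51854152-51854215, had 1.16 CPM in WT eTreg and 0.76 in WT cTreg, and the nearest outside, chr17:51642014-51642095, had 2.26 and 2.99.

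The subset difference was smaller in Pggt1bKO than in WT at some sites. The test of that difference, which is the genotype by subset interaction, called 8 of 110 sites higher and 0 lower, against 0.957% and 0.555% of all sites. A positive value means that the log2 difference of eTreg from cTreg was less negative, or more positive, in Pggt1bKO than in WT. The smallest adjusted p was at chr17:51945955-51946200 at 3.04 ± 0.50 (SE, edgeR adjusted p = 3.95e-04), followed by chr17:51965871-51966139 at 1.14 ± 0.24 (SE, edgeR adjusted p = 0.00609). The test contains the WT difference that chose the interval. The count was 1 without WT cTreg replicate 2 and 5 without replicate 1, 3 and 4 without WT eTreg replicates 2 and 1, and 4 and 5 without Pggt1bKO cTreg replicates 2 and 1. It was 4 by voom with group weights, with 815 calls of 75352 over all sites. After thinning it was 0 of 41 tested, with 128 calls of 37236 over all sites. The main fit called 1139 over all sites, and fewer were called without each of the libraries just named. Without Pggt1bKO eTreg replicates 1 and 2 the member median was 0.28 and 0.40, against 0.51 in the main fit. The second of the 2 sites missed the threshold after thinning (edgeR adjusted p = 0.0583), without WT eTreg replicate 2 (0.0695) and without WT cTreg replicate 2 (0.0508), and the first after thinning (0.0867). The 93 sites with counts in both eTreg groups are shown in the plot of one genotype's subset difference against the other's. In it, 66 lie above the line of equal differences and 26 below it. The plot leaves out 17 sites with no count in an eTreg group. Over all 110 tested sites the interaction value was positive at 68 and negative at 42, against 36070 and 39282 of 75352 over all sites.

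**Figure D5:**
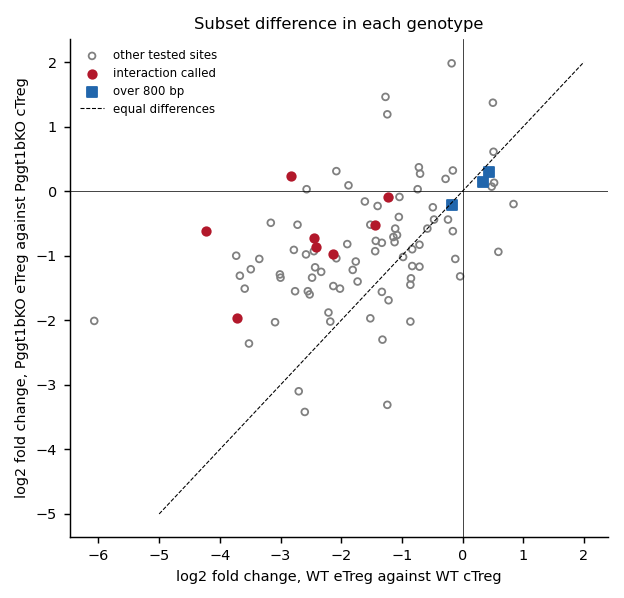
Log2 difference of eTreg from cTreg in Pggt1bKO against the same difference in WT, 1 point per tested site with a count in both eTreg groups (93 sites), with the line of equal differences. Points above the line, 66 of them, have a less negative or more positive difference in Pggt1bKO than in WT. With the 17 sites left out for having no count in an eTreg group, this held at 68 of 110.

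Summing sites over bins of 20 kb gave more counts per value in the shallow libraries. Between Pggt1bKO eTreg and Pggt1bKO cTreg, 15 of 24 tested bins fell and 0 rose, against 9.38% and 9.28% of all bins, with a median log2 difference of -0.89. By voom with group weights 9 were called. Falls ran over nearly the whole interval, from the bin at 51.86 Mb to that at 52.34 Mb. The desert bin at 52.02 to 52.04 Mb, chosen after its values were seen, had 11.7 and 13 CPM in Pggt1bKO eTreg, 43.5 and 34.2 in Pggt1bKO cTreg, 5.19 and 5.23 in WT eTreg, and 27.5 and 29.8 in WT cTreg. It differed between the Pggt1bKO subsets by -1.67 ± 0.23 on the log2 scale (SE, edgeR adjusted p = 1.78e-05).

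Between Pggt1bKO eTreg and WT eTreg, 8 of 24 bins rose and 0 fell, against 10.6% and 9.92% of all bins, and all 8 lay between 51.86 and 52.04 Mb, over the gene and the first part of the desert. The smallest rise among them, at 51.94 to 51.96 Mb, was 0.35 ± 0.11 (SE, edgeR adjusted p = 0.0266). It ran from 0.18 to 0.44 over the alternatives and lost its call in some of them. Bins were called higher again beyond the bounds of the interval, 5 of 12 in the next 600 kb above, such as 52.58 to 52.60 Mb at 3.29 ± 0.44 (SE, edgeR adjusted p = 8.76e-06), and 1 of 7 in the 600 kb below. This comparison also uses the WT eTreg libraries that chose the interval. The bin at 51.98 to 52.00 Mb had 17 and 13 CPM in Pggt1bKO eTreg, 31.7 and 29.5 in Pggt1bKO cTreg, 2.97 and 2.99 in WT eTreg, and 22.6 and 21.3 in WT cTreg, and rose by 2.43 ± 0.29 between Pggt1bKO eTreg and WT eTreg (SE, edgeR adjusted p = 2.01e-06). The interaction called 4 bins higher and 0 lower, against 2.95% and 1.36% of all bins. Between Pggt1bKO cTreg and WT cTreg 2 bins rose and 0 fell, against 2.66% and 3.92%, with 20 of 24 positive. The called bins were 52.00 to 52.02 Mb at 0.29 ± 0.08 (SE, edgeR adjusted p = 0.0384) and 52.34 to 52.36 Mb at 1.33 ± 0.32 (SE, edgeR adjusted p = 0.0111). DESeq2 called no bin between the cTreg groups, and voom with group weights called 8. Without single libraries the count was 0 (Pggt1bKO cTreg replicate 1, either WT cTreg library), 1 (Pggt1bKO cTreg replicate 2, either WT eTreg library) or 5 (either Pggt1bKO eTreg library).

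Sites called in the same directions were also found above the upper bound. In the next 600 kb above, 27 sites took 207 ± 13.9 CPM in Pggt1bKO eTreg, 282 ± 25.1 in Pggt1bKO cTreg, 109 ± 14.1 in WT eTreg and 241 ± 17.2 in WT cTreg (SD, n = 2 each). Of these 27 sites, 7 fell between Pggt1bKO eTreg and Pggt1bKO cTreg and 8 rose between Pggt1bKO eTreg and WT eTreg, with none called the other way. In the 600 kb below the interval, 1 of 13 tested sites fell in the first of these comparisons and 1 rose in the second.

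Among 3052 windows of 200 kb with at least 10 tested sites, the group pattern most like that of the interval was at 150.0 to 150.2 Mb of chromosome 5. Likeness was the distance between the log2 summed levels of the 3 other groups relative to WT cTreg, which for the interval were -0.38 in Pggt1bKO eTreg, 0.16 in Pggt1bKO cTreg and -0.71 in WT eTreg. That window was at a distance of 0.02, against a median of 0.89. The next were 130.8 to 131.0 Mb of chromosome 8 (0.08), 67.4 to 67.6 Mb of chromosome 10 (0.09), 87.4 to 87.6 Mb of chromosome 4 (0.10) and 118.4 to 118.6 Mb of chromosome 10 (0.11).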

How the data were processed

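The authors deposited raw whole-number counts per peak for 8 ATAC-seq libraries in 1 table. Tools named in the submitters' processing notes are bedtools, MACS2 2.1.1, SAMtools, Picard 2.9.4 and Trimmomatic 0.36, on mm9 (NCBIM37). Not given in the sources used here are the aligner, the shift of read ends, the peak threshold, any pooling for peak calling, and the unit counted (reads or fragments). Peaks called mainly in deep libraries would under-represent sites open only in shallow ones. Intervals took every 2 counts as 1 observation, in case both ends of a fragment were counted.

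Sites were tested with edgeR 4.0.16 in R 4.3.3 (filterByExpr, TMM, quasi-likelihood), with 1 mean per group over all 8 libraries, two-sided, and Benjamini-Hochberg adjustment over all 75352 tested sites or 28720 tested bins of 20 kb. The scripts were tested on simulated data with 100 sites or bins changed at each fold. At sites, 14% of 2-fold and 39% of 4-fold changes were recovered between the Pggt1bKO subsets, with 14 false calls. Between the eTreg groups these were 11%, 34% and 14, and for the interaction 5%, 29% and 7. The cTreg groups gave 23%, 72% and 1. Bins recovered 69%, 72%, 69% and 86% of 4-fold changes, with 37, 38, 9 and 1 false calls, in that order. Adjusted p-values under 0.05 for Pggt1bKO eTreg may therefore include more false calls than that threshold states, and real changes may be missed. Alternatives used DESeq2 1.42.0, limma 3.58.1 (voom with group weights), other scalings, no filter, a replicate block, only the compared libraries, thinned counts and each library left out.

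Sites were named if among the 10 highest in mean CPM, the 4 widest, or, with a mean of at least 20 counts, the 4 largest called differences in each direction of a contrast. The members and lists were chosen with earlier results of these data known. Gene lists and motifs at sites were not used here, for lack of an mm9 genome. Coordinates are as in the table, whose starts may count from 0.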

Additional observations from a re-analysis of the deposited data

Results flagged for a closer look

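A difference between genotypes in the subset difference, tested as an interaction with edgeR, passed an adjusted p of 0.05 at 8 sites, and every one was positive. The log2 values were 1.15 at chr17:51901953-51902077, 3.04 at chr17:51945955-51946200, 1.14 at chr17:51965871-51966139, 1.56 at chr17:51994700-51994905, 0.91 at chr17:52015636-52016126, 3.63 at chr17:52258780-52258870, 1.72 at chr17:52307773-52307953 and 1.75 at chr17:52317446-52317601. The site chr17:52258780-52258870 had 1.79 and 4.74 CPM in Pggt1bKO eTreg, 4.37 and 5.11 in Pggt1bKO cTreg, 0.371 and 0.136 in WT eTreg, and 4.35 and 5.07 in WT cTreg, so its value rests on few counts in WT eTreg. These 8 calls were not equally firm. After thinning none passed, with edgeR adjusted p of 0.625 at chr17:52015636-52016126 and 0.538 at chr17:51994700-51994905. By voom with group weights those 2 (adjusted p = 0.0644 and 0.0624), chr17:52317446-52317601 (0.0636) and chr17:52258780-52258870 (0.0519) missed the threshold.

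The same test called 4 bins of 20 kb. Their log2 values were 1.28 at 51.90 to 51.92 Mb, 1.78 at 51.92 to 51.94 Mb, 1.92 at 51.98 to 52.00 Mb and 0.63 at 52.00 to 52.02 Mb. All of these contain the WT difference on which the interval was chosen. Single libraries could not be tested as outliers in groups of 2.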

How the results depend on the processing

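The site and bin values followed were those called in the main fit, with the Pggt1bKO subset difference of the broad sites. None changed direction under the alternatives run, which that choice made likely in advance. Other values of named sites and bins were not followed. No member median changed direction, while some medians over all sites, which are near 0, did (after thinning, 0.01 between the Pggt1bKO subsets, 0.02 between the eTreg groups and 0.05 for the interaction). Of the values followed, 717 for sites and 632 for bins stayed on their side of the threshold, and 102 and 79 lost their call. After thinning every library to the smallest total, 41 members were tested, and the sites called were 7 between Pggt1bKO eTreg and Pggt1bKO cTreg, 10 between Pggt1bKO eTreg and WT eTreg, 0 between Pggt1bKO cTreg and WT cTreg, 21 between WT eTreg and WT cTreg and 0 for the interaction. The bins were 5 between Pggt1bKO eTreg and WT eTreg, 0 between Pggt1bKO cTreg and WT cTreg and 1 for the interaction. These falls came with fewer counts and fewer tested sites. Voom with group weights called 10, 15, 5 and 4 sites (subsets in Pggt1bKO, genotypes in eTreg, genotypes in cTreg, interaction), and 9 bins between the Pggt1bKO subsets and 8 between the cTreg groups. DESeq2 called 0 sites and 0 bins between the cTreg groups. With only the compared libraries in the fit, 15 sites passed between the eTreg groups, and 6 sites and 8 bins between the cTreg groups. The calls over all features moved too. Between the cTreg groups they were 98 of 37236 sites after thinning, 2866 of 75352 by voom, 867 of 75352 by DESeq2 and 3480 of 75472 with only the compared libraries. The bins there were 173 of 21526, 3330 of 28720, 1071 of 28720 and 3388 of 28763 in the same order. Between the eTreg groups 3622 of 37236 sites were called after thinning, 4586 of 75352 by voom and 5340 of 75472 with only the compared libraries, and for the interaction 128 after thinning and 815 by voom. Per TMM library size the region's WT eTreg level was 596.6 CPM. The cause of the changes other than by thinning was not tested.

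Leaving out each library in turn gave 11 to 18 sites between the Pggt1bKO subsets, 15 to 23 between the eTreg groups, 0 to 2 between the cTreg groups, 53 to 78 between the WT subsets and 1 to 7 for the interaction. The bins ran from 11 to 15, 7 to 10, 0 to 5, 15 to 19 and 3 to 5 in that order. The summed CPM of the region were 747.9 to 751.6 in Pggt1bKO eTreg, 1076 to 1132 in Pggt1bKO cTreg, 577.6 to 584.4 in WT eTreg and 975.9 to 994.4 in WT cTreg. A group left with 1 library was assumed to vary like the others. The calls over all sites and over all bins changed in these fits too, so the ranges are not particular to the members.

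Whether same-numbered libraries were paired is not given in the labels. Their deviations per site correlated at -0.016 to 0.057. Values per site from few counts vary by counting alone, so low correlations cannot exclude pairing. With the replicate block, 19 sites were called between the Pggt1bKO subsets, 21 between the eTreg groups, 1 between the cTreg groups, 69 between the WT subsets and 8 for the interaction. Over all 75352 sites the calls in that fit were 6341, 7781, 1569, 20212 and 1041 in the same order.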
